A study of Sus scrofa with 12 samples.

Results

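Teneurins, latrophilins and FLRT proteins are cell-surface proteins that bind one another across cell contacts. Transcripts of 9 of them were followed in porcine aortic valve interstitial cells (paVICs), namely the teneurins TENM1 to TENM4, the latrophilins ADGRL1 to ADGRL3, and the FLRT proteins FLRT2 and FLRT3. All 9 had a row among the 31908 genes of the count table. The set was chosen by the measured TENM4 level, which was higher with LPC + dantrolene than with LPC alone, so that comparison is described below for every member without a test. Any other TENM4 comparison that uses the LPC or the LPC + dantrolene libraries is given as values only, which leaves dantrolene against vehicle as its only test.

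The libraries held mRNA of primary paVICs of WT genotype after 24 h in 1 of 4 treatments (n = 3 per group, 12 libraries). The groups were vehicle, 10 μM LPC (lysophosphatidylcholine, a lipid carried by oxidized lipoprotein), 60 μM dantrolene (a blocker of calcium release through ryanodine receptors), and LPC + dantrolene at the same doses. All groups, vehicle included, were kept in low serum with 0.6% DMSO and 0.1% ethanol. The paper describes 3 experiments on different days, each on a separate primary isolation and with 1 replicate per group. The replicate number was taken to mark the isolation, which the labels do not state. Each isolation was pooled from the valves of several slaughterhouse hearts, so the replicates are separate pools and not single animals.

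Teneurins are large single-pass proteins with a long extracellular part that ends in a globular head. They pair with themselves and bind latrophilins on the facing cell. Latrophilins are adhesion G protein-coupled receptors, first found as receptors of a spider venom toxin, and they also bind FLRT proteins, which carry leucine-rich repeats and can bind UNC5 guidance receptors and FGF receptors as well. The complexes are best known from synapses and axon guidance. In the heart, FLRT2 is known for its part in the integrity of the epicardium.

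Total counts ranged from 16489684 to 24105935 per library, and 3 counts correspond to 0.114 to 0.186 CPM (library-scaled counts, with TMM factors), a floor that covers counting error only. LPC + dantrolene replicate 2 stood apart. Its median correlation with the other replicates of its group was 0.909, against 0.937 to 0.974 for the other libraries, and 13371 genes had a count in it against 14546 to 16286. All 9 fibroblast and interstitial cell markers were detected, and their sum was 78266 to 91092 CPM in the vehicle group, 56821 to 83995 CPM in the LPC group, 55097 to 72641 CPM in the dantrolene group and 57715 to 104001 CPM under both agents. For 3 smooth muscle markers it was 1303 to 2285, 1067 to 2114, 931 to 1187 and 515 to 1760 CPM in the same order. Of 4 leukocyte markers PTPRC and CD3E were at 0, while CD14 (10.3 to 24.5 CPM) and CD68 (0.760 to 3.17 CPM) had counts in all 12 libraries, and the list summed to 12.4 to 27.3 CPM. Of 4 cardiomyocyte markers MYH6 and NPPA had no row, TNNT2 was at 0, and ACTN2 had 14 counts in 3 libraries (at most 0.457 CPM). Neural or glial markers together reached 1.93 to 2.24 CPM with vehicle, 1.09 to 2.56 CPM with LPC, 1.20 to 1.45 CPM with dantrolene and 1.10 to 1.68 CPM under both agents. For 6 endothelial markers the summed level lay at 84.6 to 88.4 CPM in the vehicle group, 62.2 to 70.1 CPM in the LPC group, 47.6 to 66.2 CPM in the dantrolene group and 52.3 to 60.9 CPM under both agents, while KDR did not exceed 0.238 CPM. The endothelial sum was higher in all 3 vehicle libraries than in any treated library, and the fibroblast, smooth muscle and neural or glial sums were higher in all 3 vehicle libraries than in any dantrolene library. The part of these sums in the differences from vehicle below was not tested. In bulk RNA, fewer cells of a type and less RNA per cell cannot be told apart.

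Of the 9 members, 6 passed the filter on low counts and were tested among 13216 genes (TENM3, TENM4, ADGRL1, ADGRL2, FLRT2 and FLRT3), and 3 failed it (TENM1, TENM2 and ADGRL3). Positions are those of RefSeq on Sscrofa11.1, matched by symbol. No coding lengths were used, so levels are compared between groups and not between genes.

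TENM4 (ENSSSCG00000014894) spans 786 kb of chromosome 9, from 13040615 to 13826957, and is the teneurin known for roles in early mesoderm and in myelination. Its symbol is blank in the count table and was taken from a gene name table. Vehicle libraries read 9.25, 2.10 and 1.57 CPM for replicates 1 to 3, LPC libraries 1.59, 3.09 and 2.78 CPM, dantrolene libraries 7.50, 3.85 and 6.49 CPM, and LPC + dantrolene libraries 6.94, 13.8 and 19.3 CPM. The group means were 2.49 ± 0.794 CPM with LPC, 4.31 ± 4.29 CPM with vehicle, 5.95 ± 1.89 CPM with dantrolene and 13.3 ± 6.17 CPM with LPC + dantrolene (SD, n = 3). In that order each group overlapped its neighbour, while the LPC libraries lay below all dantrolene and all LPC + dantrolene libraries. Relative to its mean, vehicle spread the most (coefficient of variation 99.6%, against 31.7% to 46.3% in the other groups), with 194 counts in replicate 1 and 36 and 27 in the other vehicle libraries.

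**Figure D1:**
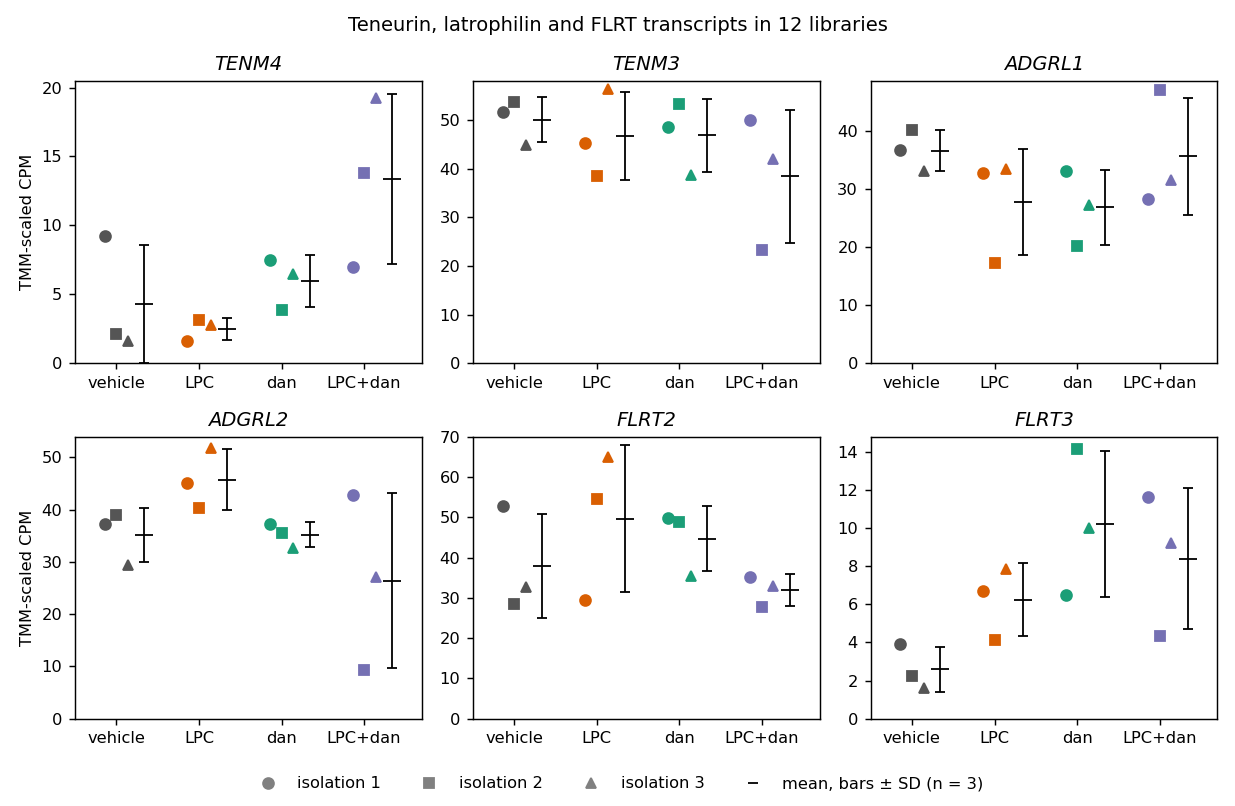
TMM-scaled CPM (y axis, from 0) of the 6 tested members in each library, by treatment group (x axis; dan, dantrolene), with symbols for the 3 isolations and a black dash and bars for the mean ± SD of 3 replicates. TENM4 is at 1.59 to 3.09 CPM with LPC and 6.94 to 19.3 CPM with LPC + dantrolene, and FLRT3 is lowest in the 3 vehicle libraries.

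The comparison that chose TENM4 gave a log2 fold change of 2.42 for LPC + dantrolene against LPC, or 5.35-fold. The difference within an isolation was 2.06, 2.12 and 2.75 on the log2 scale for isolations 1 to 3. TENM4 was picked for being higher here, so nothing is read from the size or the shared sign of these values. Of all tested genes 0.219% were called higher in that comparison at an adjusted p under 0.05, a share from which nothing is read for TENM4. Against vehicle, the described log2 fold changes of TENM4 were −0.80 with LPC and 1.62 with LPC + dantrolene, and against dantrolene alone LPC + dantrolene gave 1.17. These differences did not share a direction over the isolations. With LPC against vehicle, isolation 1 gave −2.47 and isolations 2 and 3 gave 0.54 and 0.78. With LPC + dantrolene against vehicle, the values were −0.41, 2.65 and 3.53, and against dantrolene −0.11, 1.81 and 1.55. In each of these 3 comparisons isolation 1 went against the other two.

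Dantrolene against vehicle shares no library with the comparison that chose TENM4. There the log2 fold change was 0.45 (SE 0.43, 95% confidence interval −0.41 to 1.31, adjusted p = 0.705), and 2 of 3 isolations were higher. The groups overlapped, and the difference did not exceed the spread between replicates. Without vehicle replicate 1 the same test gave 1.69 (adjusted p = 0.0261), and the described values against vehicle became 0.43 with LPC and 2.85 with LPC + dantrolene, so this library set whether TENM4 passed and which sign LPC alone had. The value for LPC + dantrolene against LPC lay between 2.05 and 2.73 over the 20 alternatives. TENM4 was chosen for this difference in these same libraries, so nothing is read from that range.

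**Figure D2:**
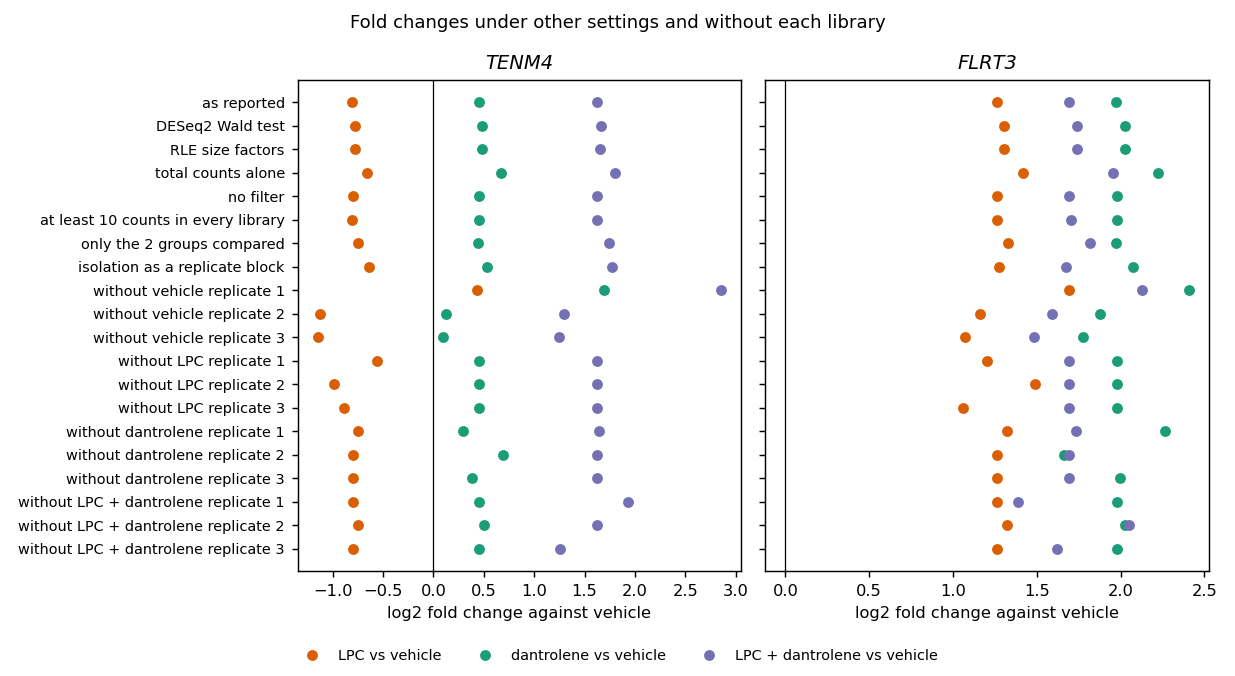
Log2 fold changes against vehicle (x axis) of TENM4 and FLRT3 as reported, under 7 other settings of the fit, and without each of the 12 libraries in turn (y axis), with a colour for each treatment. The TENM4 values without vehicle replicate 1 stand to the right of their columns (0.43 with LPC, 1.69 with dantrolene, 2.85 with LPC + dantrolene), and all FLRT3 values are above 0.

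The other teneurin with reads in all libraries was TENM3 (ENSSSCG00000015774, chromosome 15, 41818190 to 44401747), known for matching neurons to their targets in the visual system. It read 51.6, 53.8 and 44.9 CPM with vehicle, 45.3, 38.6 and 56.4 CPM with LPC, 48.6, 53.3 and 38.7 CPM with dantrolene, and 50.0, 23.3 and 42.1 CPM with LPC + dantrolene. All 4 groups overlapped, and the lowest value was that of LPC + dantrolene replicate 2. TENM3 was not called in any tested comparison. Its log2 fold changes against vehicle were −0.10 with LPC (interval −0.75 to 0.55), −0.10 with dantrolene (−0.74 to 0.55) and −0.38 under both agents (−1.03 to 0.27), and the last was −0.07 without LPC + dantrolene replicate 2. With libraries scaled by total counts alone, LPC and dantrolene gave 0.063 and 0.14, so no direction is given for TENM3.

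TENM1 (ENSSSCG00000012644, chromosome X, 101853340 to 102641299) had 8 counts in all, spread over 4 libraries. TENM2 (ENSSSCG00000017018, chromosome 16, 55624273 to 59084150) had 6 counts, in 2 libraries. Each exceeded 3 counts in a single library, so a difference between groups was not detectable at this depth.

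Among the latrophilins, ADGRL1 (ENSSSCG00000013773, chromosome 2, 64997159 to 65046509) is the widely studied toxin receptor. Its vehicle libraries read 36.7, 40.1 and 33.1 CPM, its LPC libraries 32.7, 17.3 and 33.5 CPM, its dantrolene libraries 33.2, 20.3 and 27.2 CPM, and its LPC + dantrolene libraries 28.3, 47.2 and 31.5 CPM. The highest and the lowest of these 12 values both came from isolation 2, the highest in LPC + dantrolene replicate 2. The log2 fold change against vehicle was −0.39 with LPC (interval −1.06 to 0.27, adjusted p = 0.624), −0.45 with dantrolene (−1.11 to 0.21, adjusted p = 0.598) and −0.04 with LPC + dantrolene (−0.70 to 0.62, adjusted p = 0.991). None was called. With dantrolene all 3 isolations were lower than vehicle (−0.14, −0.98 and −0.28), although the groups overlapped. With LPC and with LPC + dantrolene 2 isolations were lower and 1 higher.

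ADGRL2 (ENSSSCG00000003761, chromosome 6, 131727082 to 132366106), a latrophilin also studied in developing heart valves, read 37.2, 39.0 and 29.3 CPM with vehicle and 45.1, 40.3 and 51.8 CPM with LPC. The LPC libraries lay above all vehicle libraries, so all 3 isolations were necessarily higher, yet the test gave 0.38 (SE 0.35, interval −0.31 to 1.07, adjusted p = 0.645). With dantrolene ADGRL2 read 37.3, 35.6 and 32.6 CPM, within the vehicle range, and the interval of the difference was −0.69 to 0.69. With LPC + dantrolene it read 42.7, 9.26 and 27.2 CPM. The level of 9.26 CPM, in LPC + dantrolene replicate 2, was the lowest of the 12 libraries. LPC + dantrolene against vehicle gave −0.41 (interval −1.10 to 0.28, adjusted p = 0.764), and 0.047 without that library. For LPC + dantrolene against LPC the described value was −0.79, and −0.40 without that library. All 3 isolations were lower (−0.08, −2.11 and −0.93), although isolation 1 was nearly level and the groups overlapped.

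ADGRL3 (ENSSSCG00000026129, chromosome 8, 59988280 to 60800177), a latrophilin studied for its links to attention disorders, had 38 counts in all and failed the filter. The LPC libraries held 14, 7 and 1 counts, the LPC + dantrolene libraries 11, 0 and 1 counts, and both the vehicle and the dantrolene libraries 0, 0 and 2 counts. More than 3 counts were reached in 3 libraries, all of them with LPC. Fitted with no filter, LPC against vehicle had an adjusted p of 0.637, so no difference was detectable at this depth.

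**Figure D3:**
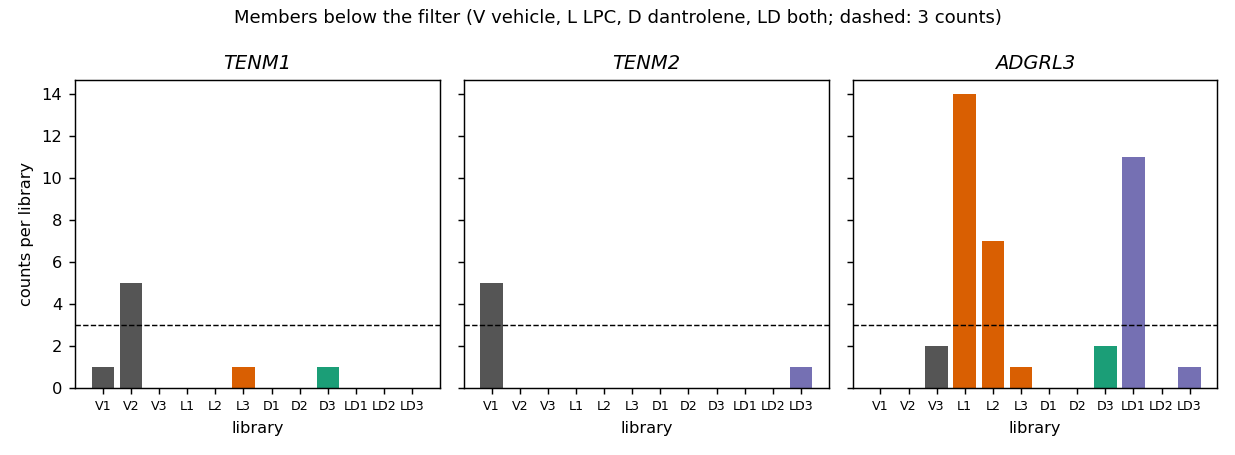
Counts per library (y axis, from 0) of the 3 members that failed the low-count filter, with the 12 libraries on the x axis and the floor of 3 counts dashed. ADGRL3 exceeds the floor in LPC replicates 1 and 2 and in LPC + dantrolene replicate 1, and TENM1 and TENM2 exceed it in 1 library each.

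FLRT3 (ENSSSCG00000007079, chromosome 17, 22940491 to 22955277), a ligand of latrophilins and UNC5 receptors that is also known to act with FGF receptors, was higher than vehicle in every treatment. Vehicle libraries read 3.91, 2.22 and 1.63 CPM, LPC libraries 6.71, 4.13 and 7.87 CPM, dantrolene libraries 6.51, 14.2 and 9.99 CPM, and LPC + dantrolene libraries 11.6, 4.35 and 9.23 CPM. No treated library fell to the vehicle range, so all 3 isolations were necessarily higher in each comparison. The highest vehicle library (3.91 CPM) and the lowest LPC library (4.13 CPM) lay close together.

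FLRT3 rose 2.40-fold with LPC (log2 1.26, SE 0.41, interval 0.44 to 2.08, adjusted p = 0.0360). It rose 3.93-fold with dantrolene (log2 1.98, SE 0.41, interval 1.15 to 2.80, adjusted p = 0.000377). With LPC + dantrolene it rose 3.23-fold (log2 1.69, SE 0.41, interval 0.87 to 2.51, adjusted p = 0.00278). These comparisons share the vehicle libraries and so are not independent of each other. The dantrolene call held in all 20 alternatives. The LPC call was lost in 8 of 20, namely with DESeq2 (adjusted p = 0.0549), with total counts alone (0.0541), with a block for the isolation (0.0912), or without vehicle replicate 2 (0.189) or 3 (0.228) or LPC replicate 1 (0.143), 2 (0.0519) or 3 (0.176). The LPC + dantrolene call was lost without LPC + dantrolene replicate 1 (log2 1.39, adjusted p = 0.0645), and without replicate 2 of that group it was 2.05 (adjusted p = 2.17e-05).

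FLRT3 did not differ detectably between LPC + dantrolene and dantrolene alone (log2 −0.28, interval −1.06 to 0.50, adjusted p = 1), a difference that was 0.022 without LPC + dantrolene replicate 2. For LPC + dantrolene against LPC the described value was 0.43. FLRT3 lies within the span of MACROD2, a hydrolase of ADP-ribose marks on chromosome 17, which had 0 to 12 counts per library and was not tested. Whether exons of these genes overlap was not examined. Where exons do overlap, reads cannot be told apart without strand, and no strand setting is given in the sources used here.

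FLRT2 (ENSSSCG00000040166, chromosome 7, 107812354 to 107913006) was not called in any tested comparison. It read 52.7, 28.4 and 32.7 CPM with vehicle, 29.5, 54.7 and 64.9 CPM with LPC, 49.8, 48.9 and 35.5 CPM with dantrolene, and 35.3, 27.6 and 32.9 CPM with LPC + dantrolene. LPC replicate 1 lay below the other LPC libraries and vehicle replicate 1 above the other vehicle libraries, so LPC was lower than vehicle in isolation 1 and higher in the other isolations. The log2 fold change against vehicle was 0.39 with LPC (interval −0.27 to 1.05), 0.24 with dantrolene (−0.42 to 0.90) and −0.25 under both agents (−0.91 to 0.41). LPC + dantrolene lay below dantrolene in all 3 isolations without overlap, at −0.49 (interval −1.15 to 0.18), which had an adjusted p of 1. FLRT3 was called in 3 comparisons with vehicle and FLRT2 in 0, and the difference between the 2 genes was not tested.

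**Figure D4:**
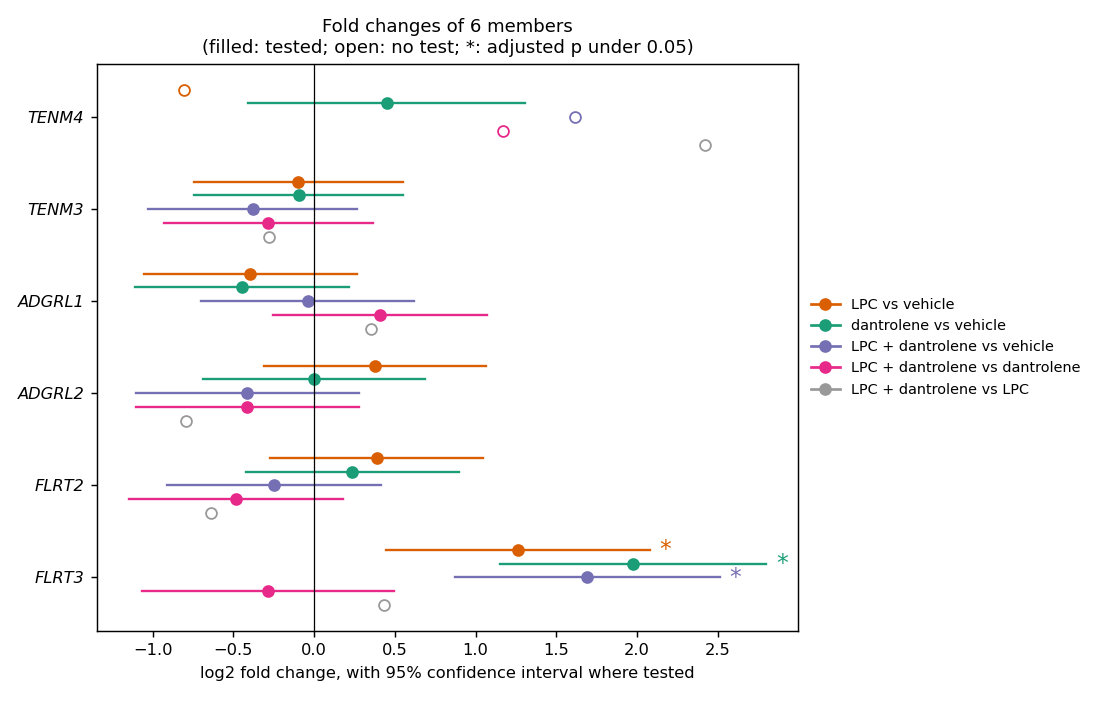
Log2 fold changes (x axis) of the 6 tested members (y axis) in 5 comparisons, with 95% confidence intervals for those tested (filled points) and open points for those described without a test. Asterisks mark the 3 calls at an adjusted p under 0.05, all of FLRT3 against vehicle, and the TENM4 point at 2.42 is the comparison that chose it.

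Counted over the members, FLRT3 was the only call. Against vehicle 1 of 5 members was higher with LPC, where 8.54% of all tested genes were called higher and 0.144% lower. With dantrolene it was 1 of 6, beside 7.54% higher and 1.26% lower over all tested genes. With LPC + dantrolene it was 1 of 5, beside 6.23% higher and 0.900% lower. No member was called lower in any comparison in which it was tested. Between LPC + dantrolene and dantrolene 0 of 5 were called by edgeR, by DESeq2, or at an unadjusted p under 0.05, beside 0.0151% of all tested genes called higher and 0.00757% lower. At that unadjusted threshold 169 of the 13216 tested genes passed (edgeR). Medians over the members leave out TENM4 with LPC and with LPC + dantrolene (5 members) and include it with dantrolene (6 members). The median log2 fold change of the members tested was 0.38 with LPC, 0.12 with dantrolene and −0.25 with LPC + dantrolene, beside −0.18, −0.11 and −0.08 over all tested genes. The last 3 values became −0.0023, 0.13 and 0.12 with total counts alone, a shift that applies to all fold changes against vehicle given here.

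The interaction compares what LPC did in the presence of dantrolene with what it did in its absence. It was called for 0 of 5 members, while 0.159% of all tested genes were higher and 4.49% lower. At an unadjusted p under 0.05 (edgeR) it was 1 of 5, beside 1919 of the 13216 tested genes, and DESeq2 called 0. The member was FLRT3, whose log2 fold change was 1.26 for LPC alone and −0.28 for LPC on top of dantrolene, with an interaction of −1.54 (SE 0.57, interval −2.67 to −0.42, adjusted p = 0.110). Without dantrolene replicate 1 it was −1.85 (adjusted p = 0.0474). ADGRL1 (0.80), ADGRL2 (−0.79), FLRT2 (−0.87) and TENM3 (−0.19) had adjusted p-values from 0.404 to 0.869. For TENM4 the described interaction was 1.97, and 0.73 without vehicle replicate 1.

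Other ligands, receptors, scaffolds, proteases and G proteins of these families were taken from a list of 22 genes, of which 20 had a row and 14 were tested. SHANK1 and GNAS had no row, and those that failed the filter included FLRT1, UNC5D, NRXN2, NRXN3 and CNTN6. The UNC5 receptors UNC5A, UNC5B and UNC5C, the FGF receptors FGFR1 and FGFR2, the scaffolds SHANK2 and SHANK3, and GNA12 were tested and not called in any comparison, as were ADGRL4, MBD1 and FURIN. With LPC 2 of 14 were higher than vehicle, and with dantrolene the same genes, GNA13 and GNAQ. At an unadjusted p under 0.05 (edgeR) there were 4 of 14 with LPC, 2 with dantrolene and 4 for the interaction. Over all 13216 tested genes that was 2099, 2146 and 1919. With LPC the others were UNC5A (log2 −0.80, adjusted p = 0.256) and UNC5C (−1.06, adjusted p = 0.135), both lower. With LPC + dantrolene 0 of 14 were called by edgeR or DESeq2. At an unadjusted p under 0.05 (edgeR) there were 2 of 14, beside 1922 of all 13216 tested genes. Between LPC + dantrolene and dantrolene 0 of 14 were called by edgeR, by DESeq2, or at an unadjusted p under 0.05. Over all tested genes 169 passed that unadjusted threshold (edgeR). The background shares are those given with the members, and the list's median was −0.36 with LPC, −0.26 with dantrolene and −0.19 with LPC + dantrolene.

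GNAQ encodes a G protein alpha subunit that activates phospholipase C. It read 29.3, 25.1 and 17.1 CPM with vehicle, 61.7, 60.7 and 59.8 CPM with LPC, 39.3, 63.3 and 47.9 CPM with dantrolene, and 53.6, 15.0 and 53.9 CPM with LPC + dantrolene. The LPC libraries and the dantrolene libraries lay above vehicle without overlap, and the low value of 15.0 CPM came from LPC + dantrolene replicate 2. GNAQ rose with LPC (log2 1.35, SE 0.35, adjusted p = 0.00439) and with dantrolene (1.07, SE 0.35, adjusted p = 0.0351), and had 0.78 with LPC + dantrolene (adjusted p = 0.231), which was 1.22 without replicate 2 of that group (adjusted p = 0.000890). Its interaction of −1.65 (SE 0.49, adjusted p = 0.0318) was the only one of the list to be called, and it was not called without any of the 3 vehicle libraries, LPC replicate 1 or 2, or dantrolene replicate 2 (adjusted p from 0.0555 to 0.206), nor with the isolation as a block (0.0862) or total counts alone (0.102). The LPC call of GNAQ was lost without vehicle replicate 3 (0.0529) or LPC replicate 2 (0.0503), and its dantrolene call without any of the vehicle libraries, LPC replicate 1 or 2, or dantrolene replicate 2 or 3 (0.0636 to 0.285).

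GNA13 encodes a G protein alpha subunit that acts on the actin cytoskeleton. It read 47.6, 36.8 and 27.7 CPM with vehicle, 105, 86.6 and 82.6 CPM with LPC, 62.0, 95.1 and 77.8 CPM with dantrolene, and 93.0, 30.8 and 102 CPM with LPC + dantrolene. The 1 treated library within the vehicle range was LPC + dantrolene replicate 2. GNA13 rose with LPC (log2 1.29, SE 0.34, adjusted p = 0.00540) and with dantrolene (1.07, SE 0.34, adjusted p = 0.0308). With LPC + dantrolene it had 1.01 (adjusted p = 0.0536), and 1.43 without that library (adjusted p = 7.59e-05). The LPC call of GNA13 was lost without vehicle replicate 2 (0.0598) or 3 (0.0646) or LPC replicate 1 (0.0634), and its dantrolene call without vehicle replicate 2 or 3, LPC replicate 1 or 2, or dantrolene replicate 2 or 3 (0.0583 to 0.238). The dantrolene calls of both genes were lost once the isolation was entered as a block, at an adjusted p of 0.0830 for GNAQ and 0.0646 for GNA13.

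**Figure D5:**
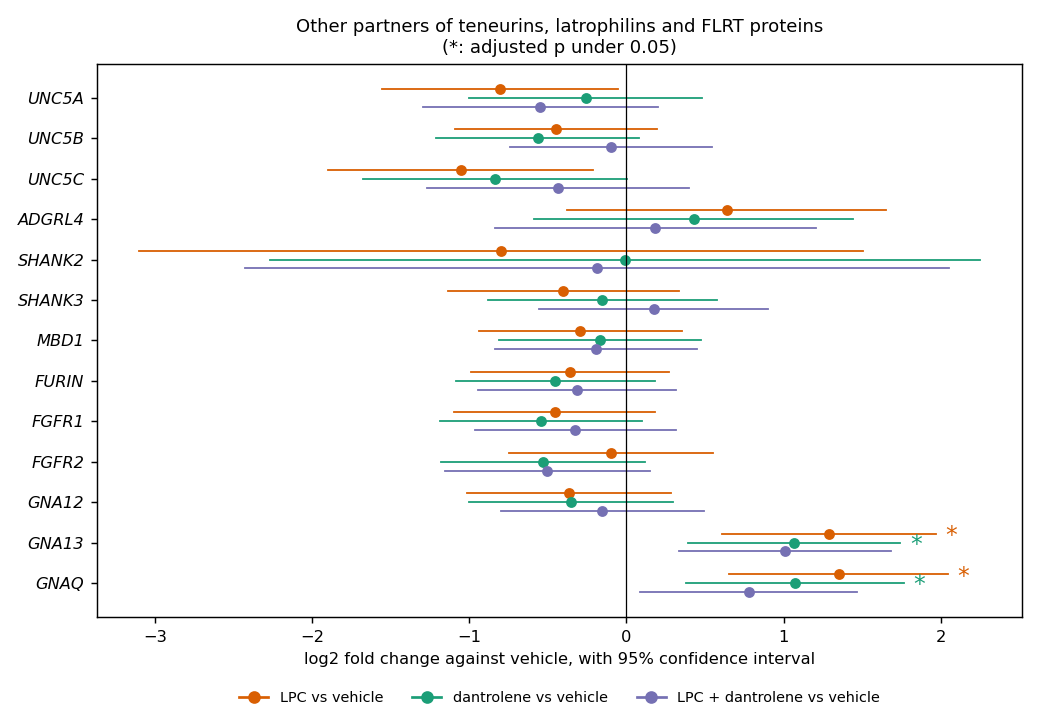
Log2 fold changes against vehicle (x axis) with 95% confidence intervals for tested genes of the partner list (y axis), with a colour for each treatment. Asterisks mark the 4 calls at an adjusted p under 0.05, which are GNA13 and GNAQ with LPC and with dantrolene.

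The genes whose log2 CPM followed TENM4 most closely over the 12 libraries were, among 11489 tested genes with a symbol, AKNA (Pearson r = 0.916), RDH10 (0.891), USP27X (0.881), DNM1 (0.868) and ORAI1 (0.858). Their Spearman rank coefficients were 0.902, 0.902, 0.937, 0.888 and 0.853. Without the 2 libraries farthest from the median of TENM4, LPC + dantrolene replicate 3 and vehicle replicate 3, r was 0.892, 0.846, 0.877, 0.824 and 0.912. RDH10 is a retinol dehydrogenase, USP27X a deubiquitinase, DNM1 a dynamin of vesicle scission, and ORAI1 the pore of store-operated calcium channels. These values are a description, since the genes were picked for the largest r and the 12 libraries share 4 treatments, 3 isolations and the authors' adjustment.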

How the data were processed

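RNA sequencing counts of 12 paVIC libraries in 4 groups of 3 were analysed. The authors deposited whole-number counts per gene, adjusted for batch with the ComBat function and not scaled for library size. The batch variable is not named in the sources used here and was taken to be the isolation. Degrees of freedom spent on that adjustment are missing from the tests, which can make adjusted p-values too small. The methods name STAR as aligner, whereas the submitters' processing notes list HISAT2 2.0.5, R 4.1.1, DESeq2 1.32.0 and the build Sscrofa11.1. Deposited DESeq2 tables of mean signal, fold changes and p-values were not used.

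Counts were fitted in R 4.3.3 with edgeR 4.0.16 (filterByExpr, TMM, quasi-likelihood test, group as the only term) and adjusted by Benjamini-Hochberg over 13216 genes, with calls at an adjusted p under 0.05. Log2 CPM used a prior count of 2, and the fit was tested on simulated data for dantrolene against vehicle. There 21 of 99 tested genes with a 2-fold change were called, and 82 of 100 with a 4-fold change. Calls were made for 1 of 12734 unchanged genes. The simulated libraries had no isolation effect and no batch adjustment. Same-numbered libraries were taken to come from the same isolation. Their deviations from the group means correlated at a median of −0.152 (18 pairs), against 0.108 for other pairs between groups (36 pairs). An adjustment for the isolation would fix such an outcome, so it does not show the pairing on its own. Alternatives were DESeq2 1.42.0, scaling by RLE factors or by total counts, a filter of 10 counts in every library or none, a fit of the 2 groups alone, a block for the isolation, a threshold of 0.1, and leaving out each library.

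The members and lists were chosen with earlier results of these data known. The genes named are the 9 members, the partner genes past the threshold or failing the filter, the 5 genes most like TENM4, and cell type markers. MACROD2 and the partner genes tested without a call were added because of their position or as an account of the list. Some genes of the lists are not reported here.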

Additional observations from a re-analysis of the deposited data

Results flagged for a closer look

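GNAQ, the G protein subunit that activates phospholipase C, had an effect of LPC that differed with and without dantrolene, by an interaction of −1.65 on the log2 scale (SE 0.49, adjusted p = 0.0318, edgeR). LPC gave 1.35 without dantrolene and −0.30 on top of dantrolene. LPC + dantrolene replicate 2, at 15.0 CPM, was the lowest of its group, and without it the interaction was −1.32 (adjusted p = 0.0393). The call was lost in 8 of 19 alternatives, among them the isolation as a block (adjusted p = 0.0862) and total counts alone (0.102). Over all 13216 tested genes 593 (4.49%) were called with a lower interaction, beside 1 of 14 tested partner genes. Without LPC replicate 2 that count over all genes was 4, and GNAQ was not called (adjusted p = 0.157).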

How the results depend on the processing

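FLRT3 kept its call with dantrolene in all 20 alternatives (log2 1.67 to 2.41). Members higher with LPC fell from 1 to 0 with DESeq2, total counts alone and the isolation as a replicate block, and ranged from 0 to 1 without single libraries. Leaving out 1 library gave 1 to 2 members higher with dantrolene (TENM4 passing without vehicle replicate 1), 0 to 1 higher with LPC + dantrolene, and 0 to 1 with a lower interaction. Partner genes higher with LPC ranged from 0 to 2 without single libraries. With dantrolene they fell from 2 to 0 under the replicate block and ranged from 0 to 2 without single libraries. With LPC + dantrolene they rose from 0 to 1 with no filter, a filter of 10 counts in every library, RLE factors, total counts alone, and a threshold of 0.1, and ranged from 0 to 2 without single libraries, with 0 to 1 lower. Partner genes with a lower interaction went from 1 to 0 with total counts alone and the block, to 2 with at least 10 counts in every library and an adjusted p under 0.1, and ranged from 0 to 2 without single libraries. The GNAQ interaction was not called with total counts alone (adjusted p = 0.102), under the block (0.0862), or without vehicle replicate 1 (0.0555), 2 (0.108) or 3 (0.103), LPC replicate 1 (0.112) or 2 (0.157), or dantrolene replicate 2 (0.206). The block changed no other call of a member, GNA13 or GNAQ than those given.

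Among tested values, signs turned only for ones that were not called. TENM4 against vehicle, given without a test, moved most without vehicle replicate 1 (0.43 with LPC, 2.85 with LPC + dantrolene, interaction 0.73). TENM3 turned with total counts alone (0.063 with LPC, 0.14 with dantrolene), and without single libraries it ranged from −0.25 to 0.023 with LPC, from −0.20 to 0.023 with dantrolene, and from −0.42 to 0.00018 for the interaction. ADGRL2 with dantrolene, −0.00099 as reported, was 0.052 with DESeq2 and with RLE factors, 0.23 with total counts, 0.00099 with no filter and 0.00096 with at least 10 counts in every library, and ranged from −0.069 to 0.079 without single libraries. ADGRL1 with LPC + dantrolene was 0.024 with DESeq2 and with RLE factors, 0.059 in a fit of the 2 groups and 0.13 with total counts, and ranged from −0.24 to 0.10. Without single libraries, LPC + dantrolene against vehicle ranged from −0.95 to 0.047 for ADGRL2 and from −0.42 to 0.063 for FLRT2, and against dantrolene from −0.59 to 0.028 for FLRT3, −0.34 to 0.31 for GNA13 and −0.55 to 0.094 for GNAQ. The causes were not tested.

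Over all tested genes, the alternatives called 668 to 1623 genes higher with LPC (1129 as reported), 377 to 1515 with dantrolene (997), and 466 to 1706 with LPC + dantrolene (824), and 4 to 889 with a lower interaction (593, with 4 left without LPC replicate 2). Lower calls ranged from 8 to 69 with LPC (19), 52 to 290 with dantrolene (166) and 31 to 393 with LPC + dantrolene (119), and higher calls from 3 to 53 for LPC + dantrolene against LPC (29) and from 0 to 52 for the interaction (21). Without LPC + dantrolene replicate 2 lower calls with LPC and with LPC + dantrolene were 69 and 393, and without LPC replicate 2 higher calls against LPC were 3. By Spearman rank, 4 of the 5 genes most like TENM4 were shared. Levels per coding length were not run. Counts per library were 27 to 384 for TENM4, 28 to 372 for FLRT3 and 375 to 1399 for TENM3. The part of depth in their spread between replicates was not tested.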
